A study of Mus musculus with 22 samples.

Results

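Trophoblast stem (TS) lines and extraembryonic endoderm (XEN) lines are the cultured counterparts of the trophectoderm and of the primitive endoderm of the mouse blastocyst. The comparison described here took every library that the deposited count table names as TS or XEN, which were 10 of 22 libraries. They came from 5 of the 7 cell lines in the series: TS F1 and TS F2, labelled female, TS M3, labelled male, and XEN M1 and XEN M2, both labelled male. All of these lines are labelled wild type for Nanog, the pluripotency factor that the series studied in embryos, and no treatment was given. The labels mention a standard culture protocol, name no medium for TS or XEN and do not say whether feeder cells were present. Each line was sequenced from 2 passages, which the labels call technical replicates, on libraries made with the Illumina TruSeq RNA kit. Both libraries of a line were summed, so the line was the replicate, with n = 3 for TS and n = 2 for XEN. The p-values therefore measure the spread between these few lines. A further 2 embryonic stem (ES) lines, ES F1 and ES M2, titled serum free, entered the fit but not the contrast. They shared the filter on low counts, the scaling and the estimate of the spread. Their values are given beside some genes for reference.

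TS cells depend on FGF signalling and are held by a circuit of transcription factors that includes CDX2, EOMES, ELF5 and TFAP2C. They give rise to the placental trophoblast, including giant cells that secrete prolactin-family hormones. XEN cells are held by GATA4, GATA6 and SOX17 and resemble the endoderm that lines the yolk sac. Parietal endoderm, one derivative of that layer, lays down the thick basement membrane called Reichert's membrane, and visceral endoderm, the other, takes up nutrients by endocytosis and secretes plasma proteins.

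Library totals were 9.97 to 16.5 M counts (M stands for 1000000 counts) in TS and 12.7 to 23.7 M in XEN, with 15348 to 15858 and 13743 to 14564 genes detected, and the 10 most counted genes took 4.77% to 6.03% of a TS library and 7.80% to 10.01% of a XEN library. Over the 9572 genes at a mean of at least 10 counts per M counts of its library (CPM), the median absolute log2 difference between passages of a line was 0.151 to 0.201 in 4 lines and 0.409 in XEN M2. Between lines it was 0.198 to 0.380 within TS, 0.277 within XEN and 0.527 to 0.631 across the lineages. One label was borne out only in part by its values. Xist, the RNA that coats the inactive X, was at 268, 420.2 and 55.8 CPM in TS F1, TS F2 and TS M3, and Ddx3y, a Y-linked helicase, at 1.64, 2.17 and 10.8 CPM in TS and 37.9 and 49.1 CPM in XEN. The line labelled male, TS M3, thus held Xist and less of Ddx3y than either XEN line, but more Ddx3y than TS F1 or TS F2. In its libraries Y-linked Eif2s3y was at 8.50 and 12.0 CPM, with at most 0.348 CPM in TS F1 and TS F2 and at least 19.1 CPM in XEN. Uty, also Y-linked, was at 2.66 and 4.23 CPM, at most 0.608 CPM and at least 4.69 CPM. Kdm5d, another, was at 0 and 0.0846 CPM, at most 0.152 CPM and at least 6.71 CPM. It was also low in ES M2, labelled male, at 0.378 and 0.193 CPM, where Eif2s3y was at 62.4 and 67.8 CPM. A low Kdm5d thus does not tell a male line from a female one here. The part of these TS M3 values in the results was not tested. Markers of fibroblasts, which could come from feeder cells, moved with the lineage too: the summed level of Col1a1, Col1a2, Col3a1 and the other 3 genes of the fibroblast marker set was 22.4, 100.8 and 42.4 CPM in TS and 2.06 and 7.92 CPM in XEN. Col1a1 was highest in library 1 of TS F2, at 80.1 CPM against 6.46 CPM in library 2, so results were also computed without that library. Other TS libraries held it too, up to 38.7 CPM in library 1 of TS M3, against at most 3.22 CPM in a XEN library. Levels are given in TMM-scaled CPM, a count divided by the scaled library total, always in the order TS F1, TS F2 and TS M3 and then XEN M1 and XEN M2. CPM is not divided by gene length, so levels are compared between lines and not between genes.

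The label held against the 4 markers fixed for the lines. Elf5, an ETS factor of the trophoblast, measured 266, 193 and 189 CPM in TS and 0.184 and 0.289 CPM in XEN (906-fold, log2 difference 9.82, SE 0.37, adjusted p = 1.47e-05). Hand1, a basic helix-loop-helix factor needed for giant cells, stood at 839, 1183 and 1761 CPM in TS and 0.553 and 0.434 CPM in XEN (2518-fold, log2 difference 11.30, SE 0.67, adjusted p = 6.47e-05). Sox17, an endoderm factor, was at 0.0575, 0.205 and 0.139 CPM in TS and 279 and 321 CPM in XEN (2297-fold, log2 difference -11.17, SE 0.35, adjusted p = 1.17e-05). Gata4, a zinc finger factor of the primitive endoderm, stood at 22.3, 20.0 and 16.7 CPM in TS and 1439 and 1082 CPM in XEN (64.0-fold, log2 difference -6.0003, SE 0.25, adjusted p = 1.91e-05). Each marker was in the lineage it belongs to, with no overlap between lines, and Gata4 alone of the 4 kept more than 10 CPM in every line of the lower lineage. In RNA from whole cultures, fewer cells of a type and less RNA per cell cannot be told apart. Summed over 5 markers each, TS lines held 1677 to 2583 CPM of TS markers against 3.13 and 6.91 CPM in XEN, and XEN lines held 3320 and 2506 CPM of XEN markers against 27.6 to 35.9 CPM in TS. Pou5f1, Nanog and Zfp42, which mark ES cells, summed to 57.3 to 83.7 CPM in TS and 7.78 and 11.1 CPM in XEN, against 3125 and 2922 CPM in the ES lines. Of these, Pou5f1 measured 3.65, 5.78 and 4.82 CPM in TS and 3.59 and 4.05 CPM in XEN, and its groups overlapped, while Zfp42 made up most of the TS sum at 77.9, 73.4 and 51.7 CPM in TS and 7.19 and 3.47 CPM in XEN.

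Of 14687 genes tested with edgeR's quasi-likelihood test, 5385 (36.7%) passed at an adjusted p under 0.05, of which 2976 were higher in TS (20.3% of those tested) and 2409 in XEN (16.4%). Both XEN lines are labelled male. The contrast of TS M3 alone with the XEN lines kept every line in the fit. Its median log2 difference was -0.017, which rests on 1 TS line. The shares over all lines are the background for every gene list, and the median log2 difference, TS minus XEN, over all genes tested was 0.019. The lines of the lineages did not overlap for 2972 and 2397 of the genes that passed, against 60.1% of all genes tested. The sizes of the differences were not alike. Genes higher in TS had a median fold difference of 14.4 and a median TS level of 9.71 CPM, whereas genes higher in XEN had a median fold difference of 2.65 and a median XEN level of 64.8 CPM. Differences over 32-fold were found for 1096 genes in TS and 247 in XEN. Part of that gap lay in low values, since 398 genes higher in TS had a TS mean under 1 CPM, against 50 such genes in XEN. Restricted to genes at 10 CPM or more in the higher lineage, 1477 were higher in TS with a median of 4.43-fold and 2091 in XEN with a median of 2.37-fold. Of those, 359 TS genes and 132 XEN genes were at 10 CPM or more in one lineage and under 1 CPM in the other.

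**Figure D1:**
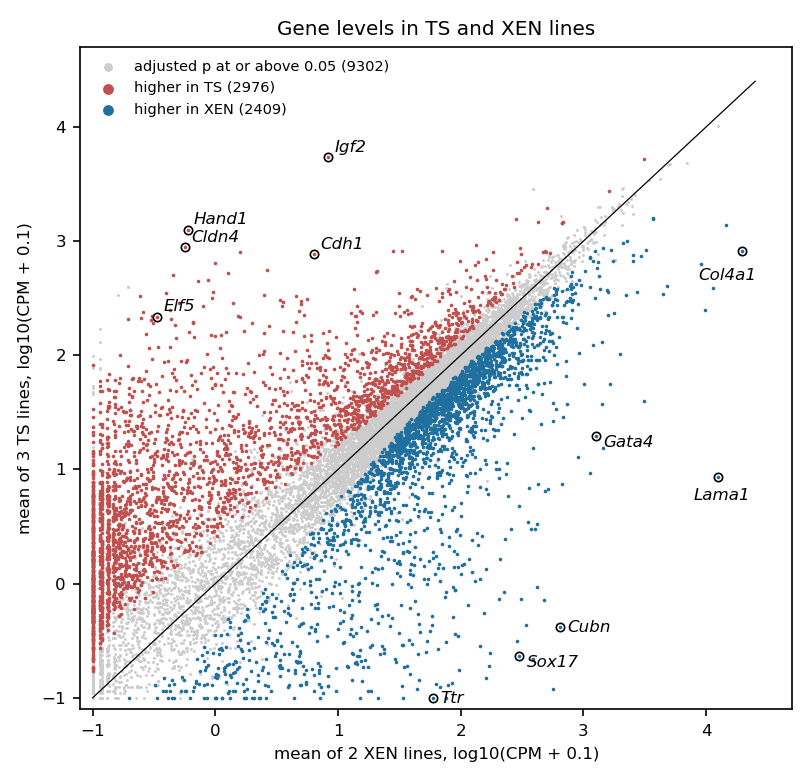
Mean level of each tested gene in the 2 XEN lines (x) and the 3 TS lines (y), both as log10(CPM + 0.1), coloured by the edgeR test at an adjusted p of 0.05; circled genes are named in the text. The 2976 genes higher in TS reach far to the left, near 0 CPM in XEN, while most of the 2409 genes higher in XEN lie near the diagonal.

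The genes with the largest differences included secreted, membrane and regulatory proteins. Epn3, an endocytic adaptor of the epsin family, stood at 15.1, 32.1 and 199 CPM in TS and 0 and 0 CPM in XEN, which is at least 1390-fold (adjusted p = 0.0102). Dlx3, a homeobox factor needed in the placenta, was at 12.7, 18.3 and 70.8 CPM in TS and 0 and 0 CPM in XEN, at least 599.9-fold (adjusted p = 0.00254). Both were at 0 in the XEN lines, and both were highest in TS M3. Gjb2, a gap junction protein of the placenta, stood at 16.9, 19.6 and 142 CPM in TS and 0.0307 and 0 CPM in XEN, a ratio of 3070 (95% counting interval 551 to 121000, adjusted p = 0.00264). Cyp11a1, the enzyme that starts steroid synthesis from cholesterol, measured 22.4, 30.9 and 90.8 CPM in TS and 0.0307 and 0 CPM in XEN, a ratio of 2600 (95% counting interval 467 to 103000, adjusted p = 0.000549). Slc38a4, an amino acid transporter of the placenta, stood at 403, 337 and 774 CPM in TS and 0.338 and 0.362 CPM in XEN (1425-fold, adjusted p = 5.22e-05). Of these, Gjb2 and Cyp11a1 were also highest in TS M3, while Slc38a4 varied by less than 3-fold among TS lines. The threshold was no longer passed for Epn3 without XEN M1, where its adjusted p was 0.0525.

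Among the genes higher in XEN, Ttr, the thyroxine carrier that visceral endoderm secretes, was at 0, 0 and 0 CPM in TS and 33.7 and 85.3 CPM in XEN, at least 1546-fold (adjusted p = 0.00111). Rfx6, a winged-helix factor known from pancreatic endoderm, stood at 0, 0 and 0 CPM in TS and 34.2 and 33.5 CPM in XEN, at least 911-fold (adjusted p = 0.000115). Ugt2b34, a glucuronosyltransferase, measured 0, 0 and 0 CPM in TS and 114 and 38.8 CPM in XEN, at least 2134-fold (adjusted p = 0.00045). None of these had a read in a TS line. Enpep, a membrane aminopeptidase, stood at 0.0575, 0 and 0 CPM in TS and 332 and 792 CPM in XEN, a ratio of 21900 (95% counting interval 6070 to 181000, adjusted p = 6.71e-05). Cubn, the endocytic receptor cubilin, was at 0.201, 0.246 and 0.510 CPM in TS and 910.3 and 376 CPM in XEN (2080-fold, adjusted p = 3.79e-05). Aqp8, a water channel, stood at 0.0575, 0 and 0.0927 CPM in TS and 132 and 186 CPM in XEN (2924-fold, adjusted p = 0.000102). In the sets of 15 genes that the rule on size picked for each lineage, every gene had lines that did not overlap, which the rule itself required.

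Promoters were read because genes of the GATA, HNF4, AP-2 and grainyhead families were among those that passed. RefSeq promoter windows (GRCm38.p6, 250 bases before the gene's start) were matched by symbol for 10140 of the 14687 tested genes, as 12970 windows. Each was searched on both strands for the letters of a few known motifs, none of which contains another: AGATAA for GATA factors, CAAAGNNCA for HNF4, GCCNNNGGC for TFAP2, GGAATG for TEAD, AACNNGTT for GRHL and CCGGAAGT for ETS. The GATA letters were in 12.3% of the 219 windows of genes over 32-fold higher in XEN, in 5.51% of the 943 windows of genes over 32-fold higher in TS and in 6.08% of all windows. The HNF4 letters were in 10.5%, 4.14% and 4.49%, and the TEAD letters in 18.7%, 12.5% and 11.1%. The ETS letters, common in promoters of broadly expressed genes, were in 0.457% and 0.742%, against 5.22% of all windows. The TFAP2 letters, in 21.5%, 21.6% and 20.9%, and the GRHL letters, in 3.20%, 3.71% and 2.88%, were spread more evenly. The median GC content was 53.2% in the XEN windows and 59.6% in the TS windows and over all windows, and its part was not tested. The following windows show 1 match each, in capitals, for 3 genes of each lineage and are given 5' to 3' on the gene's strand. They were chosen after the values were seen, and a match describes letters only. Of the 32 markers and genes with the largest folds, 21 had a window, and these held the TFAP2 letters for 2 of 10 TS genes and the GATA and HNF4 letters for 2 and 1 of 11 XEN genes. Other matches in the printed windows are not marked, among them the GATA letters on the opposite strand of the Cyba window.

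The Elf5 window (chr2:103411848-103412097, + strand) carries the TEAD letters, on the opposite strand, starting 173 bases upstream of the start. The Gjb2 window (chr14:57104703-57104952, - strand) and the Cyba window (chr8:122432941-122433190, - strand) carry the TFAP2 letters, starting 124 and 179 bases upstream. Cyba, a subunit of the phagocyte oxidase, measured 87.2, 36.9 and 80.5 CPM in TS and 0 and 0.0724 CPM in XEN, a ratio of 2110 (95% counting interval 585 to 17500, adjusted p = 0.000247).
Elf5: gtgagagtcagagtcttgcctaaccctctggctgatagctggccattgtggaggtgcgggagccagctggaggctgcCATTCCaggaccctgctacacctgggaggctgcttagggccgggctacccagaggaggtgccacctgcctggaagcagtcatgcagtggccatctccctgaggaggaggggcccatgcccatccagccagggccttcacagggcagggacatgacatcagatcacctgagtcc
Gjb2: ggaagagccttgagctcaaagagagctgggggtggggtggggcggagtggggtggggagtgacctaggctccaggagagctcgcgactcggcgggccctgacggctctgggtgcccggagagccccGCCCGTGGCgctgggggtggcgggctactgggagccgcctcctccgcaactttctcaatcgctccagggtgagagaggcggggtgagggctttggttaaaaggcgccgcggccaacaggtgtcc
Cyba: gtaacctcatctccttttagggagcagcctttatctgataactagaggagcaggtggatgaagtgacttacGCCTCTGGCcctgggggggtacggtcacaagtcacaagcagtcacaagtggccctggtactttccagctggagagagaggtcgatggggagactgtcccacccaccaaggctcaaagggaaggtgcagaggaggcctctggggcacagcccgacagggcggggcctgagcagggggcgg
The Hnf4a window (chr2:163506607-163506856, + strand) and the Nepn window (chr10:52391358-52391607, + strand) carry the GATA letters, starting 52 and 246 bases upstream, and the Cubn window (chr2:13491877-13492126, - strand) carries the HNF4 letters, starting 35 bases upstream. Nepn, the secreted proteoglycan nephrocan, stood at 0, 0 and 0.0927 CPM in TS and 21.1 and 104 CPM in XEN, a ratio of 2380 (95% counting interval 659 to 19700, adjusted p = 0.000399).
Hnf4a: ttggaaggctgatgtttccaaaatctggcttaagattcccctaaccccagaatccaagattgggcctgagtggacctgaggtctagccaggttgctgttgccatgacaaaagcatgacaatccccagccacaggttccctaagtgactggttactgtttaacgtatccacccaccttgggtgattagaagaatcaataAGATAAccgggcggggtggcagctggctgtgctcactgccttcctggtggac
Nepn: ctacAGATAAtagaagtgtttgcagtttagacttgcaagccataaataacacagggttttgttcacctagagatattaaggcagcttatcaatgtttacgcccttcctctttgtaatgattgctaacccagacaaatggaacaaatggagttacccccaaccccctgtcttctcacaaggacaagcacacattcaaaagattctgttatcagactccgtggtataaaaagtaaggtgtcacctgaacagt
Cubn: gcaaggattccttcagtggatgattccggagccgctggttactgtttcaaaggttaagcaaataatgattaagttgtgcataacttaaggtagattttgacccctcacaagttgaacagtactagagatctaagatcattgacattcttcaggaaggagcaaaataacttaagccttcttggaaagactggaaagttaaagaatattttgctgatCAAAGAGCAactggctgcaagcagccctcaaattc

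Of the list of TS transcription factors, 21 of 24 tested members were higher in TS and 1 in XEN, against 20.3% and 16.4% of all genes, and the list's median log2 difference was 6.85 against 0.019 over all genes tested. Cdx2, the caudal homeobox factor that starts the trophectoderm, was at 121, 97.0 and 94.1 CPM in TS and 0.676 and 5.83 CPM in XEN (32.2-fold, adjusted p = 0.00769). Eomes, a T-box factor, stood at 161, 175 and 106 CPM in TS and 1.505 and 0.289 CPM in XEN (160.0-fold, adjusted p = 0.000382). Tcfap2c, an AP-2 factor, measured 289.6, 277 and 433 CPM in TS and 0.215 and 0.0724 CPM in XEN (2176-fold, adjusted p = 2.48e-05). Eomes and Tcfap2c were under 2 CPM in both XEN lines, as was Cdx2 in XEN M1, while the libraries of XEN M2 held 9.18 and 0.644 CPM of Cdx2; with only the second library of each line its log2 difference was 7.86. The orphan nuclear receptor Esrrb stood at 409, 406 and 264 CPM in TS and 0.707 and 1.01 CPM in XEN (418-fold, adjusted p = 1.91e-05), and in the ES lines at 1022 and 1085 CPM. Sox2, shared by TS and ES cells, was at 253, 209 and 124 CPM in TS and 0.399 and 0.724 CPM in XEN (349-fold, adjusted p = 6.24e-05), and in the ES lines at 713 and 648 CPM. Both were thus present in TS and ES lines and under about 1 CPM in XEN. Klf5 was the 1 member higher in XEN, at 65.3, 55.1 and 41.0 CPM in TS and 148 and 91.8 CPM in XEN (2.23-fold, adjusted p = 0.0143), and it no longer passed without XEN M1 (adjusted p = 0.0983). Tead4, the TEAD factor that specifies trophectoderm in the embryo, stood at 122, 119.9 and 102 CPM in TS and 122 and 95.6 CPM in XEN (adjusted p = 0.764), with overlapping lines, and Ets2 at 109, 157 and 262 CPM in TS and 60.0 and 98.5 CPM in XEN (adjusted p = 0.0567). DESeq2 in place of edgeR gave Ets2 an adjusted p of 0.014.

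Of the XEN transcription factors, 13 of 18 tested members were higher in XEN and 2 in TS, with a median of -3.51, and the other 2 of the 20 listed were too low to test. Gata6, the partner of GATA4, measured 3.30, 2.17 and 3.20 CPM in TS and 449 and 293 CPM in XEN (128-fold, adjusted p = 1.91e-05). Sox7, a close relative of SOX17, stood at 0.575, 0.656 and 0.649 CPM in TS and 446 and 179 CPM in XEN (497-fold, adjusted p = 6.73e-05). Foxa2, a forkhead factor of endoderm, was at 4.42, 1.68 and 1.85 CPM in TS and 149 and 124 CPM in XEN (50.5-fold, adjusted p = 0.000159). These were high in both XEN lines and under 5 CPM in every TS line. Hnf4a, a nuclear receptor of liver and visceral endoderm, stood at 0, 0.0410 and 0.0464 CPM in TS and 102 and 56.1 CPM in XEN, a ratio of 3260 (95% counting interval 903 to 26900, adjusted p = 3.98e-05). The 2 members higher in TS were Cebpa, at 4.37, 4.10 and 14.5 CPM in TS and 0.0614 and 0.0362 CPM in XEN, and Prdm1, at 3.07, 2.05 and 6.58 CPM in TS and 0.584 and 0.253 CPM in XEN (adjusted p = 0.0104). Neither exceeded 15 CPM in a TS line, and Prdm1 no longer passed without XEN M2 (adjusted p = 0.0579). GATA factors were thus divided between the lineages: Gata3 measured 72.7, 121 and 112 CPM in TS and 2.43 and 2.24 CPM in XEN (43.6-fold, adjusted p = 0.00105) and Gata2 at 52.3, 70.9 and 325 CPM in TS and 0.338 and 1.70 CPM in XEN (149-fold, adjusted p = 0.0038), the reverse of Gata4 and Gata6.

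**Figure D2:**
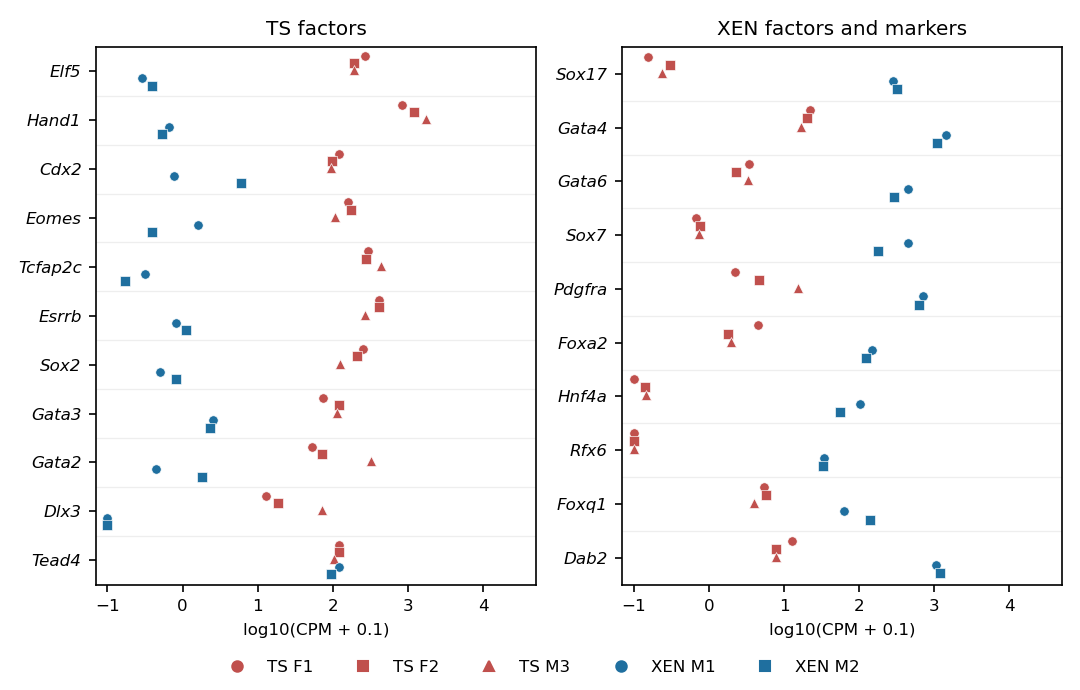
Level of each gene in every line, as log10(CPM + 0.1), with TS lines in red and XEN lines in blue and 1 symbol per line. Tead4 is the one gene whose TS and XEN lines overlap; the levels of different genes are not comparable, because CPM is not divided by length.

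Among surface and stemness genes of TS cells, 12 of 14 tested were higher in TS and 1, Spry4, in XEN, with a median of 6.17. Bmp8b, a BMP ligand of the trophoblast, stood at 183, 151 and 141 CPM in TS and 0.737 and 0.289 CPM in XEN (300.1-fold, adjusted p = 5.61e-05). Genes of differentiated trophoblast passed in part: of 20 tested members among 35 listed, 9 were higher in TS (45%) and 1 in XEN (5%). The other 10 did not pass, and the list's median was 7.55. Fewer were higher in TS without XEN M2, which leaves 1 XEN line. With sex as a term 16 were higher in TS, in a fit where TS M3 was the only TS line labelled male. Mmp9, the gelatinase of invading giant cells, was at 165, 285 and 163 CPM in TS and 0.215 and 0.181 CPM in XEN (1001-fold, adjusted p = 0.000102). Slc16a3, a lactate exporter, stood at 274, 265 and 307 CPM in TS and 5.50 and 4.34 CPM in XEN (57.3-fold, adjusted p = 2.72e-05), whereas Slc16a1, its relative and the 1 member higher in XEN, measured 210.0, 229 and 624 CPM in TS and 1613 and 1554 CPM in XEN (4.47-fold, adjusted p = 0.00871). The placental hormones did not pass over all lines. Prl3d1, a placental lactogen of giant cells, stood at 0.0287, 0.984 and 513 CPM in TS and 0.0307 and 0 CPM in XEN (adjusted p = 0.113), and Prl2c2, proliferin, at 0.632, 3.12 and 998 CPM in TS and 0.123 and 0 CPM in XEN (adjusted p = 0.0654). Both were high in TS M3 alone. Prl3d1 passed without TS F1 (adjusted p = 0.0477). Its log2 difference was 14.54 with sex as a term and 14.55 with TS M3 alone set against the XEN lines. TS M3 is the only TS line labelled male, so neither of these fits measured the spread between TS lines that held the hormone. Prl2c2 passed without TS F1 (adjusted p = 0.0248), TS F2 (0.0383) or TS M3 (0.034). In the same fits as for Prl3d1, with sex as a term and with TS M3 alone, its log2 difference was 13.78.

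Of 25 tested visceral endoderm genes among 28 listed, 18 were higher in XEN and 1 in TS (2 without TS M3, 0 without any other 1 line), with a median of -6.24. Spink3, a trypsin inhibitor, was at 0.144, 0.246 and 0.0464 CPM in TS and 173 and 171 CPM in XEN (1125-fold, adjusted p = 1.79e-05). Ihh, the hedgehog ligand of visceral endoderm, stood at 0.144, 0.123 and 0.232 CPM in TS and 39.2 and 91.8 CPM in XEN (391-fold, adjusted p = 6.47e-05). Apob, the core protein of secreted lipoproteins, measured 0.0862, 0.0410 and 0 CPM in TS and 36.2 and 55.0 CPM in XEN (858-fold, adjusted p = 6.79e-05). These were near 0 in TS. Afp, alpha-fetoprotein, stood at 0.144, 0.123 and 0 CPM in TS and 10.4 and 62.0 CPM in XEN (359-fold, adjusted p = 0.00193). Of 22 tested parietal endoderm genes, 17 were higher in XEN and 0 in TS, with a median of -4.13 (0 in TS also at an unadjusted p under 0.05, by DESeq2 and by limma voom). Srgn, the core of a secreted proteoglycan, was at 0.488, 0.574 and 0.788 CPM in TS and 434 and 518 CPM in XEN (779.7-fold, adjusted p = 1.04e-05). Plat, tissue plasminogen activator, a classical parietal endoderm product, stood at 1.49, 1.72 and 6.49 CPM in TS and 366 and 476 CPM in XEN (132-fold, adjusted p = 0.000382). Markers of both derivatives were thus higher in the same XEN lines.

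Basement membrane genes were not uniformly higher in one lineage. Of 27 tested members among 34 listed, 13 were higher in XEN and 7 in TS, with a median of -1.11. The XEN side held the embryonic laminin trimer and its partners. Lama1, its alpha chain, measured 8.22, 10.6 and 6.72 CPM in TS and 13370 and 11610 CPM in XEN (1465-fold, adjusted p = 1.04e-05). Lamb1, its beta chain, stood at 248, 265 and 232 CPM in TS and 10430 and 9081 CPM in XEN (39.3-fold, adjusted p = 2.72e-05). Lamc1, its gamma chain, was at 386, 427 and 343 CPM in TS and 10620 and 12290 CPM in XEN (29.7-fold, adjusted p = 1.68e-05). All 3 chains were higher in both XEN lines, and the fold difference of the alpha chain exceeded those of the other 2. Col4a1, a chain of collagen IV, stood at 577, 853 and 1023 CPM in TS and 16540 and 22320 CPM in XEN (23.8-fold, adjusted p = 6.47e-05). Nid2, a nidogen, which links laminin to collagen IV, measured 43.1, 37.8 and 36.9 CPM in TS and 3784 and 2436 CPM in XEN (79.1-fold, adjusted p = 1.64e-05). Sparc, a collagen-binding glycoprotein, stood at 1414, 1580 and 1157 CPM in TS and 13840 and 14970 CPM in XEN (10.4-fold, adjusted p = 6.79e-05). All of these were high in both XEN lines. The TS side held other chains: Lama3, the alpha chain of an epithelial laminin, was at 2.73, 2.17 and 3.66 CPM in TS and 0.0307 and 0.0362 CPM in XEN (adjusted p = 0.00066). Col18a1, a collagen of epithelial and vascular basement membranes, stood at 277, 166 and 135 CPM in TS and 3.47 and 0.326 CPM in XEN (99.7-fold, adjusted p = 0.00181). Lama5, the later embryonic alpha chain, measured 609.9, 783 and 459.9 CPM in TS and 366 and 139 CPM in XEN (adjusted p = 0.0504) and passed with limma voom (adjusted p = 0.0287) and with DESeq2 (0.00718).

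Enzymes and chaperones that make collagen had the same direction. Of 27 tested members among 28 listed, 18 were higher in XEN and 5 in TS (3 without TS F2 or without XEN M2), with a median of -1.66. P4ha1, a prolyl hydroxylase of collagen, stood at 39.6, 70.1 and 59.1 CPM in TS and 2020 and 1254 CPM in XEN (29.1-fold, adjusted p = 0.000102). Plod2, a lysyl hydroxylase, was at 118, 136 and 56.8 CPM in TS and 2272 and 1731 CPM in XEN (19.3-fold, adjusted p = 0.0003). Serpinh1, the collagen chaperone, stood at 265, 405 and 353 CPM in TS and 4330 and 4533 CPM in XEN (13.0-fold, adjusted p = 0.000125). Each of these was higher in both XEN lines than in any TS line by more than 10-fold. Of the 5 members higher in TS, 3 were extracellular cross-linking enzymes of the lysyl oxidase family: Loxl4 measured 20.6, 32.2 and 19.1 CPM in TS and 0.0922 and 0.0362 CPM in XEN (339-fold, adjusted p = 0.000257) and Lox at 1.95, 16.1 and 5.15 CPM in TS and 0 and 0 CPM in XEN, at least 142-fold (adjusted p = 0.0097). Lox was highest in TS F2, whose library 1 held the most Col1a1. Without that library the log2 difference of Lox was 9.04 (adjusted p = 0.00899). General chaperones of the endoplasmic reticulum followed the same direction, with 21 of 28 higher in XEN, 0 in TS by edgeR, DESeq2 and limma voom and at an unadjusted p under 0.05, and a median of -1.45. Hspa5, the chaperone BiP, stood at 509.7, 1089 and 678 CPM in TS and 2893 and 2180 CPM in XEN (3.34-fold, adjusted p = 0.0051). Hsp90b1, its HSP90-family partner, was at 599.5, 1004 and 390.4 CPM in TS and 2961 and 2123 CPM in XEN (3.82-fold, adjusted p = 0.00622). Atf6, a sensor of unfolded proteins, stood at 51.6, 64.6 and 39.7 CPM in TS and 161 and 175 CPM in XEN (3.23-fold, adjusted p = 0.00126). The differences of these 3, of 3.23- to 3.82-fold, were smaller than those of the laminin and collagen chains.

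Junction and polarity genes showed the opposite. Of 43 tested members among 47 listed, 31 were higher in TS and 1 in XEN, with a median of 4.48. Cdh1, E-cadherin, measured 727, 775 and 790.3 CPM in TS and 5.44 and 7.02 CPM in XEN (122.7-fold, adjusted p = 1.17e-05). Cldn4, a tight junction claudin, stood at 813, 738 and 1091 CPM in TS and 0.676 and 0.253 CPM in XEN (1840-fold, adjusted p = 2.72e-05). Epcam, an epithelial adhesion protein, was at 265, 202 and 196 CPM in TS and 14.6 and 12.8 CPM in XEN (16.1-fold, adjusted p = 5.61e-05). Cdh1 hardly varied among the TS lines, and all 3 genes had lower values in both XEN lines. Grhl2, a grainyhead factor that activates epithelial genes, stood at 32.01, 33.9 and 34.5 CPM in TS and 0.246 and 0.398 CPM in XEN (103-fold, adjusted p = 0.000185). Esrp1, a splicing factor of epithelial cells, measured 62.8, 35.8 and 94.8 CPM in TS and 0.614 and 0.108 CPM in XEN (171-fold, adjusted p = 0.000618). The 1 member higher in XEN was Ocln, occludin, at 6.64, 3.89 and 7.65 CPM in TS and 16.0 and 33.5 CPM in XEN (4.08-fold, adjusted p = 0.00872). Without XEN M2 its adjusted p was 0.0654. Tjp1, a scaffold of tight junctions, stood at 252, 265 and 169 CPM in TS and 315 and 229.6 CPM in XEN (adjusted p = 0.442), with overlapping lines, and Cldn6, expressed in early epithelia, at 432, 225 and 340.5 CPM in TS and 17.9 and 184 CPM in XEN (adjusted p = 0.157). For Cldn6, XEN M2 lay close to the TS lines, and without it the gene passed as higher in TS (log2 4.21, adjusted p = 0.00665).

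Mesenchymal genes divided, with 8 of 26 tested members higher in TS (5 without XEN M2), 6 in XEN and a median of 0.51. Vim, vimentin, was at 60.8, 226 and 78.0 CPM in TS and 1135 and 1246 CPM in XEN (9.79-fold, adjusted p = 0.003), and Zeb2, a repressor of E-cadherin, at 0.603, 2.01 and 0.835 CPM in TS and 22.7 and 14.7 CPM in XEN (16.3-fold, adjusted p = 0.00181). On the TS side were Cdh2, N-cadherin, at 5.06, 10.9 and 3.85 CPM in TS and 0.307 and 0.579 CPM in XEN (14.8-fold, adjusted p = 0.00663), and the tropomyosin Tpm1 at 615, 647 and 589 CPM in TS and 116 and 144 CPM in XEN (4.76-fold, adjusted p = 0.000168). XEN lines thus had more vimentin and less of both cadherins than any TS line. Of 20 integrins tested, among 22 listed, 7 were higher in TS (4 without TS F2) and 2 in XEN. Itgb3, a beta chain of platelets and trophoblast, stood at 42.7, 60.3 and 116 CPM in TS and 0.123 and 0.217 CPM in XEN (423-fold, adjusted p = 0.000152), and Itgb1, the common beta chain of laminin and collagen receptors, at 379, 441 and 412 CPM in TS and 974 and 932 CPM in XEN (2.32-fold, adjusted p = 0.001). Itgb1 was higher in XEN, in the direction of the laminin genes, while Itga7, a laminin-binding alpha chain, was higher in TS at 109.6, 117 and 105 CPM in TS and 9.03 and 1.95 CPM in XEN (20.1-fold, adjusted p = 0.00194). Among 8 keratins tested, of 10 listed, 3 were higher in TS and 1 in XEN. Krt7 measured 150.3, 228 and 567 CPM in TS and 1.32 and 0.362 CPM in XEN (366-fold, adjusted p = 0.00126). Krt8, a keratin of simple epithelia, stood at 619, 1003 and 3311 CPM in TS and 617 and 685 CPM in XEN (adjusted p = 0.151). For Krt8, 1 TS line lay within the XEN values.

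**Figure D3:**
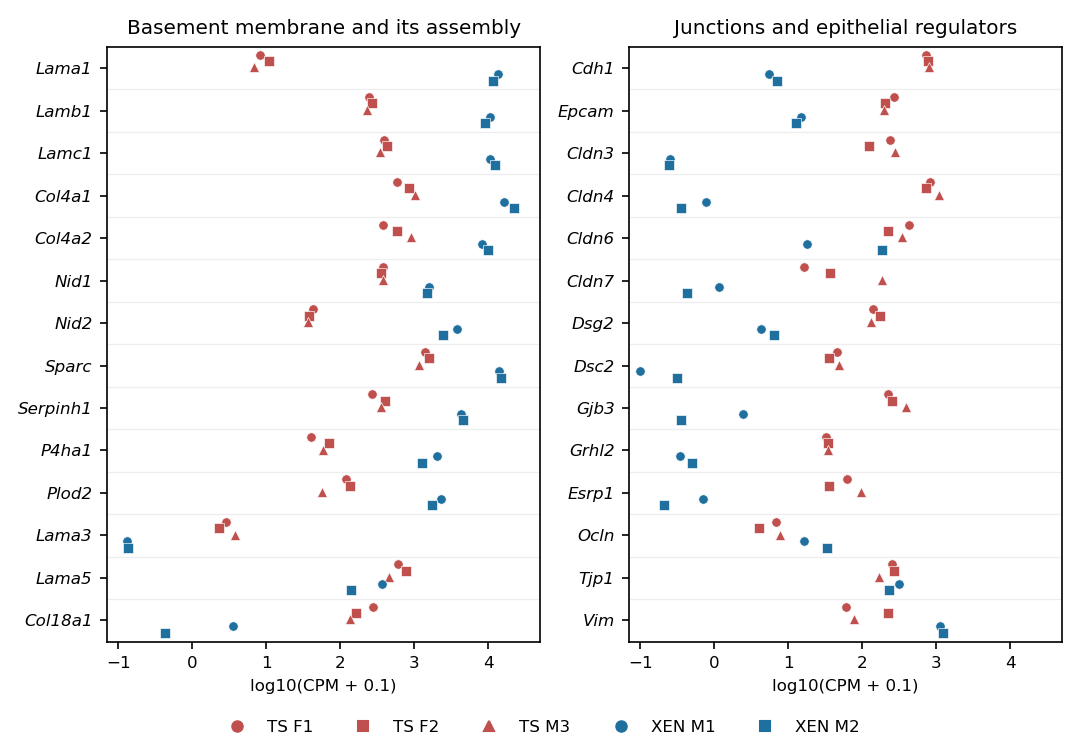
Level in every line of basement membrane genes and their processing enzymes (left) and of junction genes and epithelial regulators (right), as log10(CPM + 0.1), TS in red and XEN in blue. The laminin and collagen chains of the embryonic membrane lie to the right in XEN, Lama3 and Col18a1 in TS, and in the right panel all genes but Ocln, Tjp1 and Vim lie to the right in TS with no overlap.

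Signalling components were divided between the lineages by family member. Of 20 FGF ligands, receptors and adaptors tested, among 24 listed, 6 were higher in TS (3 without TS F2, XEN M1 or XEN M2) and 5 in XEN. Among receptors, Fgfr1 was at 228, 299.5 and 198 CPM in TS and 6.39 and 3.08 CPM in XEN (50.8-fold, adjusted p = 0.000124), Fgfr2 at 218, 134 and 96.5 CPM in TS and 8.17 and 20.2 CPM in XEN (10.5-fold, adjusted p = 0.00286) and Fgfr3 at 10.4, 9.59 and 4.64 CPM in TS and 283 and 124 CPM in XEN (24.6-fold, adjusted p = 0.000633). Fgfr4 stood at 42.8, 70.1 and 28.2 CPM in TS and 73.5 and 49.9 CPM in XEN (adjusted p = 0.464), with overlapping lines. Fgfr1 and Fgfr2, whose product receives FGF4 in the trophoblast, were thus TS genes, and Fgfr3 was a XEN gene. Klb, beta-klotho, the co-receptor for endocrine FGFs, measured 0.0575, 0 and 0.0464 CPM in TS and 90.9 and 79.2 CPM in XEN, a ratio of 2300 (95% counting interval 787 to 11200, adjusted p = 1.98e-05). Of the ligands, Fgf3 stood at 0.144, 0.205 and 0.232 CPM in TS and 63.1 and 16.1 CPM in XEN (204-fold, adjusted p = 0.000501). Fgf4, the ligand that ES cells make, was near 0 in both lineages, at 0.115, 0.410 and 0.0464 CPM in TS and 0.0307 and 0.108 CPM in XEN (adjusted p = 0.254), against 248 and 246 CPM in the ES lines. Of 20 ERK feedback and target genes tested, 8 were higher in TS (4 without XEN M2) and 2 in XEN (1 without TS F1, TS F2, XEN M1 or XEN M2). Ccnd1, cyclin D1, was at 40.0, 116 and 56.3 CPM in TS and 1.60 and 2.32 CPM in XEN (36.1-fold, adjusted p = 0.000575), and Phlda1 at 29.2, 31.5 and 28.2 CPM in TS and 88.9 and 82.7 CPM in XEN (2.90-fold, adjusted p = 0.000614). Spry4, also a member of the TS surface list, stood at 34.7, 49.4 and 49.8 CPM in TS and 83.8 and 83.0 CPM in XEN (adjusted p = 0.0379), a difference that no longer passed without any 1 of TS F1, TS F2, XEN M1 or XEN M2 (adjusted p up to 0.119).

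Ligands and receptors of other tyrosine kinases lay apart. Of 37 tested members among 41 listed, 15 were higher in TS and 10 in XEN (5 without XEN M1). Pdgfra, the PDGF receptor that marks primitive endoderm, measured 2.13, 4.55 and 15.2 CPM in TS and 708 and 632 CPM in XEN (92.7-fold, adjusted p = 0.000973). Its ligands were on the other side: Pdgfa stood at 60.2, 51.4 and 81.4 CPM in TS and 4.73 and 2.82 CPM in XEN (17.0-fold, adjusted p = 0.000201) and Pdgfb at 95.9, 113 and 144 CPM in TS and 0.338 and 0.145 CPM in XEN (468-fold, adjusted p = 5.61e-05). Kit, the stem cell factor receptor, was at 2.76, 10.4 and 9.09 CPM in TS and 445 and 404 CPM in XEN (57.7-fold, adjusted p = 0.00029). Igf2, the imprinted growth factor, stood at 5295, 3921 and 7059 CPM in TS and 13.3 and 3.11 CPM in XEN (660.0-fold, adjusted p = 0.000247). Egfr measured 28.0, 22.3 and 21.8 CPM in TS and 0.184 and 0.108 CPM in XEN (157-fold, adjusted p = 9.99e-05) and Erbb3 at 146, 97.6 and 85.5 CPM in TS and 5.75 and 2.93 CPM in XEN (25.2-fold, adjusted p = 0.000264). Of these receptors, Pdgfra and Kit were thus XEN genes and Egfr and Erbb3 TS genes, with no overlap between lines.

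BMP, Nodal and TGF-beta genes were divided in the same manner, with 20 of 56 tested members (58 listed) higher in TS and 15 in XEN and a median of 0.52. Of the ligands, Bmp4 stood at 60.4, 51.9 and 42.5 CPM in TS and 0.123 and 0.0724 CPM in XEN (496-fold, adjusted p = 2.72e-05) and Nodal at 10.8, 10.4 and 5.10 CPM in TS and 0.184 and 0.108 CPM in XEN (57.4-fold, adjusted p = 0.000262). Bmp2 was at 1.15, 1.23 and 0.232 CPM in TS and 20.5 and 21.1 CPM in XEN (23.5-fold, adjusted p = 0.00174) and Bmp6 at 0.833, 1.48 and 1.72 CPM in TS and 58.7 and 23.9 CPM in XEN (31.0-fold, adjusted p = 0.000575). Bmp4, Bmp7, Bmp8b and Nodal were thus TS genes, and Bmp2 and Bmp6 XEN genes. Secreted antagonists were found on both sides. Higher in XEN were Nog, noggin, which stood at 0.0287, 0.328 and 0.278 CPM in TS and 56.6 and 49.8 CPM in XEN (264-fold, adjusted p = 0.000429), Fst, follistatin, at 1.03, 6.27 and 2.83 CPM in TS and 439.8 and 268 CPM in XEN (106-fold, adjusted p = 0.000567), and Bmper at 0.144, 0.533 and 0.556 CPM in TS and 112 and 60.5 CPM in XEN (217-fold, adjusted p = 0.000133). Higher in TS were Grem1, gremlin, at 2.59, 9.71 and 0.603 CPM in TS and 0 and 0 CPM in XEN, at least 84.5-fold (adjusted p = 0.0126), and Lefty2, an antagonist of Nodal, at 2.73, 3.40 and 0.881 CPM in TS and 0.154 and 0.217 CPM in XEN (12.6-fold, adjusted p = 0.00909). Without XEN M1 neither passed (adjusted p = 0.0535 for Grem1 and 0.0657 for Lefty2). The inhibitory SMADs were higher in TS: Smad7 measured 147, 172 and 153 CPM in TS and 28.8 and 20.8 CPM in XEN (6.33-fold, adjusted p = 0.00016) and Smad6 at 76.2, 45.7 and 45.4 CPM in TS and 10.7 and 4.27 CPM in XEN (7.44-fold, adjusted p = 0.00307). Tgfb1 changed direction with the line left out. It stood at 22.6, 31.1 and 43.6 CPM in TS and 102 and 6.62 CPM in XEN (adjusted p = 0.548), was higher in TS without XEN M1 (log2 2.28, adjusted p = 0.0424) and higher in XEN without XEN M2 (log2 -1.67, adjusted p = 0.0472).

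Wnt genes leaned to TS, with 22 of 47 tested members (56 listed) higher there, 8 in XEN and a median of 1.37. Wnt6 was at 119.9, 58.2 and 92.8 CPM in TS and 0.676 and 0.289 CPM in XEN (182-fold, adjusted p = 0.000119). Wnt7b stood at 395, 355 and 379.9 CPM in TS and 76.7 and 83.8 CPM in XEN (4.697-fold, adjusted p = 0.000191). Frzb, a secreted Wnt antagonist, measured 0, 0.0820 and 0.185 CPM in TS and 99.7 and 240.0 CPM in XEN (2093-fold, adjusted p = 9.25e-05). Porcn, the acyltransferase that Wnt secretion needs, stood at 1.61, 1.89 and 1.62 CPM in TS and 157 and 27.4 CPM in XEN (54.1-fold, adjusted p = 0.00104). These 2 ligands and this enzyme were therefore higher in different lineages, and Porcn was higher in XEN M1 than in XEN M2. Of the nuclear factors, Tcf7 was at 93.9, 104 and 69.0 CPM in TS and 6.94 and 2.97 CPM in XEN (17.9-fold, adjusted p = 0.000431) and Tcf7l2 at 13.5, 20.6 and 18.8 CPM in TS and 116 and 106 CPM in XEN (6.30-fold, adjusted p = 0.000206). In the LIF and STAT3 list, 8 of 22 tested members (23 listed) were higher in TS and 4 in XEN. Lifr, the LIF receptor, stood at 4.28, 5.82 and 7.09 CPM in TS and 284 and 198 CPM in XEN (42.2-fold, adjusted p = 4.35e-05), Il6st, its partner gp130, at 43.1, 44.1 and 44.1 CPM in TS and 124 and 110.3 CPM in XEN (2.67-fold, adjusted p = 0.00106), and Il6ra, an interleukin receptor, at 7.07, 25 and 16.0 CPM in TS and 0.0307 and 0.0362 CPM in XEN, a ratio of 448 (95% counting interval 124 to 3700, adjusted p = 0.000561). Socs2, a feedback inhibitor, measured 30.6, 21.5 and 16.8 CPM in TS and 1.41 and 2.39 CPM in XEN (12.1-fold, adjusted p = 0.00052). The receptor chain shared by this family was thus higher in XEN, together with Lifr, while Il6ra was higher in TS.

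In the Hippo list, 6 of 25 tested members (27 listed) were higher in TS (3 without TS F1 or XEN M1) and 7 in XEN, with a median of -0.08. Ctgf, a target of YAP, stood at 11.9, 46.0 and 53.7 CPM in TS and 1021 and 1826 CPM in XEN (38.3-fold, adjusted p = 0.00102) and Ankrd1, another, at 1.26, 2.99 and 3.48 CPM in TS and 144 and 52.6 CPM in XEN (38.4-fold, adjusted p = 0.000575). Axl, also a target, was at 3.25, 16.3 and 10.1 CPM in TS and 12.4 and 5.21 CPM in XEN (adjusted p = 0.875), with overlapping lines. Wwc1, the upstream regulator KIBRA, stood at 179, 203 and 107 CPM in TS and 1.75 and 1.48 CPM in XEN (100.5-fold, adjusted p = 5.71e-05). Yap1 itself measured 228, 226 and 201 CPM in TS and 214 and 187 CPM in XEN (adjusted p = 0.571), with overlapping lines. Of 19 Notch genes tested, among 21 listed, 6 were higher in TS, among them Nrarp, a feedback target, at 24.1, 22.6 and 16.5 CPM in TS and 0.123 and 0.0362 CPM in XEN (242-fold, adjusted p = 0.000123), and Notch4 at 12.3, 18.2 and 9.18 CPM in TS and 0.184 and 0.362 CPM in XEN (48.2-fold, adjusted p = 0.000405). The 4 higher in XEN (2 without XEN M2) included Dll1, a ligand, at 0.230, 1.07 and 0.696 CPM in TS and 5.99 and 7.09 CPM in XEN (9.92-fold, adjusted p = 0.00651). Of 20 retinoid genes tested, among 24 listed, 6 were higher in TS and 4 in XEN. Rbp4, the secreted retinol carrier, stood at 7.90, 6.56 and 4.59 CPM in TS and 326 and 639 CPM in XEN (75.7-fold, adjusted p = 6.79e-05). Rxra, a retinoid receptor, was at 50.5, 83.0 and 211 CPM in TS and 0.154 and 1.84 CPM in XEN (117-fold, adjusted p = 0.00325) and Rarb at 0.0862, 0.123 and 0.0927 CPM in TS and 3.53 and 10.02 CPM in XEN (64.8-fold, adjusted p = 0.000635). Among these, a receptor was thus higher in each lineage, with no overlap between lines.

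Genes of uptake and digestion passed mostly on the XEN side. Of 31 endocytic receptors and apolipoproteins tested, among 34 listed, 15 were higher in XEN and 4 in TS, with a median of -1.80. Lrp2, megalin, the partner of cubilin, stood at 0.230, 0.779 and 2.69 CPM in TS and 148 and 171 CPM in XEN (135-fold, adjusted p = 0.00085). Dab2, their adaptor, measured 12.6, 7.62 and 7.65 CPM in TS and 1056 and 1193 CPM in XEN (121-fold, adjusted p = 1.91e-05). Mttp, which loads lipid on apolipoprotein B, stood at 10.1, 4.59 and 3.25 CPM in TS and 169 and 162 CPM in XEN (27.4-fold, adjusted p = 0.000347). On the TS side, Apoc1 was at 62.5, 62.3 and 52.5 CPM in TS and 0.123 and 0.145 CPM in XEN (428-fold, adjusted p = 1.29e-05) and Scarb1, the HDL receptor, at 192, 179 and 289.8 CPM in TS and 38.7 and 24.4 CPM in XEN (6.97-fold, adjusted p = 0.00069). Of 27 lysosomal genes tested, among 31 listed, 14 were higher in XEN and 2 in TS, with a median of -1.02. Ctsh, cathepsin H, stood at 1.64, 2.09 and 5.01 CPM in TS and 300.2 and 512 CPM in XEN (141-fold, adjusted p = 0.000262). Ctsl, cathepsin L, measured 303, 286 and 422 CPM in TS and 2039 and 2411 CPM in XEN (6.60-fold, adjusted p = 0.000146). Gusb, beta-glucuronidase, was one of the 2 higher in TS, at 22.3, 30.0 and 30.5 CPM in TS and 0.983 and 0.506 CPM in XEN (36.6-fold, adjusted p = 0.00015). The receptor, the adaptor and both proteases were higher in each XEN line than in any TS line.

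Proteases, their inhibitors and clotting factors gave 10 of 30 tested members (36 listed) higher in XEN and 4 in TS. F3, tissue factor, which starts clotting, stood at 30.9, 19.02 and 36.2 CPM in TS and 750.0 and 615 CPM in XEN (23.8-fold, adjusted p = 8.00e-05). Timp2, an inhibitor of matrix metalloproteinases, was at 21.1, 58.9 and 56.5 CPM in TS and 356 and 554 CPM in XEN (10.02-fold, adjusted p = 0.00266). Both were higher in each XEN line than in any TS line, as was Plat of the parietal endoderm list. Of 27 metallothionein, iron and redox genes tested, among 28 listed, 5 were higher in TS (3 without XEN M1, 2 without XEN M2) and 6 in XEN, shares close to those of all genes. Gsta4, a glutathione transferase, stood at 2.82, 2.34 and 8.49 CPM in TS and 70.7 and 106 CPM in XEN (19.6-fold, adjusted p = 0.00114), and Gsto1, another, at 316, 309.7 and 382 CPM in TS and 66.5 and 40.3 CPM in XEN (6.28-fold, adjusted p = 0.000584).

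Transporters were divided, with 13 of 37 tested members (43 listed) higher in XEN and 9 in TS. Slc2a3, the glucose transporter GLUT3, measured 361, 201 and 662 CPM in TS and 6394 and 3158 CPM in XEN (11.7-fold, adjusted p = 0.00183), whereas Slc2a1, GLUT1, stood at 844, 940.1 and 2665 CPM in TS and 351 and 504.4 CPM in XEN (3.47-fold, adjusted p = 0.0319). The adjusted p of Slc2a1 was 0.162 without XEN M1 and 0.0845 without XEN M2. The first steps of glycolysis were divided likewise: Hkdc1, a hexokinase relative, was at 0.0575, 0.164 and 0.139 CPM in TS and 409 and 368 CPM in XEN (3299-fold, adjusted p = 1.04e-05), Hk1 at 343, 490.0 and 267 CPM in TS and 76.2 and 80.9 CPM in XEN (4.67-fold, adjusted p = 0.00164) and Pfkp, the platelet phosphofructokinase, at 221, 218 and 148 CPM in TS and 3.81 and 4.99 CPM in XEN (44.4-fold, adjusted p = 4.93e-05). Each lineage thus had its own glucose transporter and hexokinase at the higher level. Over the glycolysis list, 7 of 24 tested members were higher in TS (2 without XEN M2) and 2 in XEN (1 without TS F2 or XEN M1), with a median of 0.22. Pkm2, pyruvate kinase, stood at 1794, 1977 and 1995 CPM in TS and 1805 and 1641 CPM in XEN (adjusted p = 0.421), with overlapping lines. Cholesterol synthesis genes mostly did not pass, with 2 of 25 tested (26 listed) higher in TS (1 without XEN M2) and 5 in XEN (2 without XEN M1). Insig1, a sterol sensor, measured 139, 94.5 and 64.5 CPM in TS and 772 and 385 CPM in XEN (5.82-fold, adjusted p = 0.00229). Serine and one-carbon genes gave 2 higher in TS (5 without XEN M2) and 6 in XEN of 21: Psph, the last step of serine synthesis, stood at 29.1, 32.5 and 38.8 CPM in TS and 176 and 129.5 CPM in XEN (4.57-fold, adjusted p = 0.00043) and Amt, of the glycine cleavage system, at 32.2, 30.3 and 25.6 CPM in TS and 1.48 and 1.12 CPM in XEN (22.5-fold, adjusted p = 6.20e-05). Steroid and prostaglandin enzymes lay in TS, with 8 of 12 tested members (18 listed) higher there (3 without XEN M1, 5 without XEN M2) and 1 in XEN. Ptges, prostaglandin E synthase, was at 15.6, 37.3 and 41.9 CPM in TS and 0.184 and 0.470 CPM in XEN (96.6-fold, adjusted p = 0.000505), and Ptgis, prostacyclin synthase, at 6.49, 12.1 and 6.45 CPM in TS and 33.7 and 33.9 CPM in XEN (4.05-fold, adjusted p = 0.00338). These 2 synthases were higher in different lineages.

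**Figure D4:**
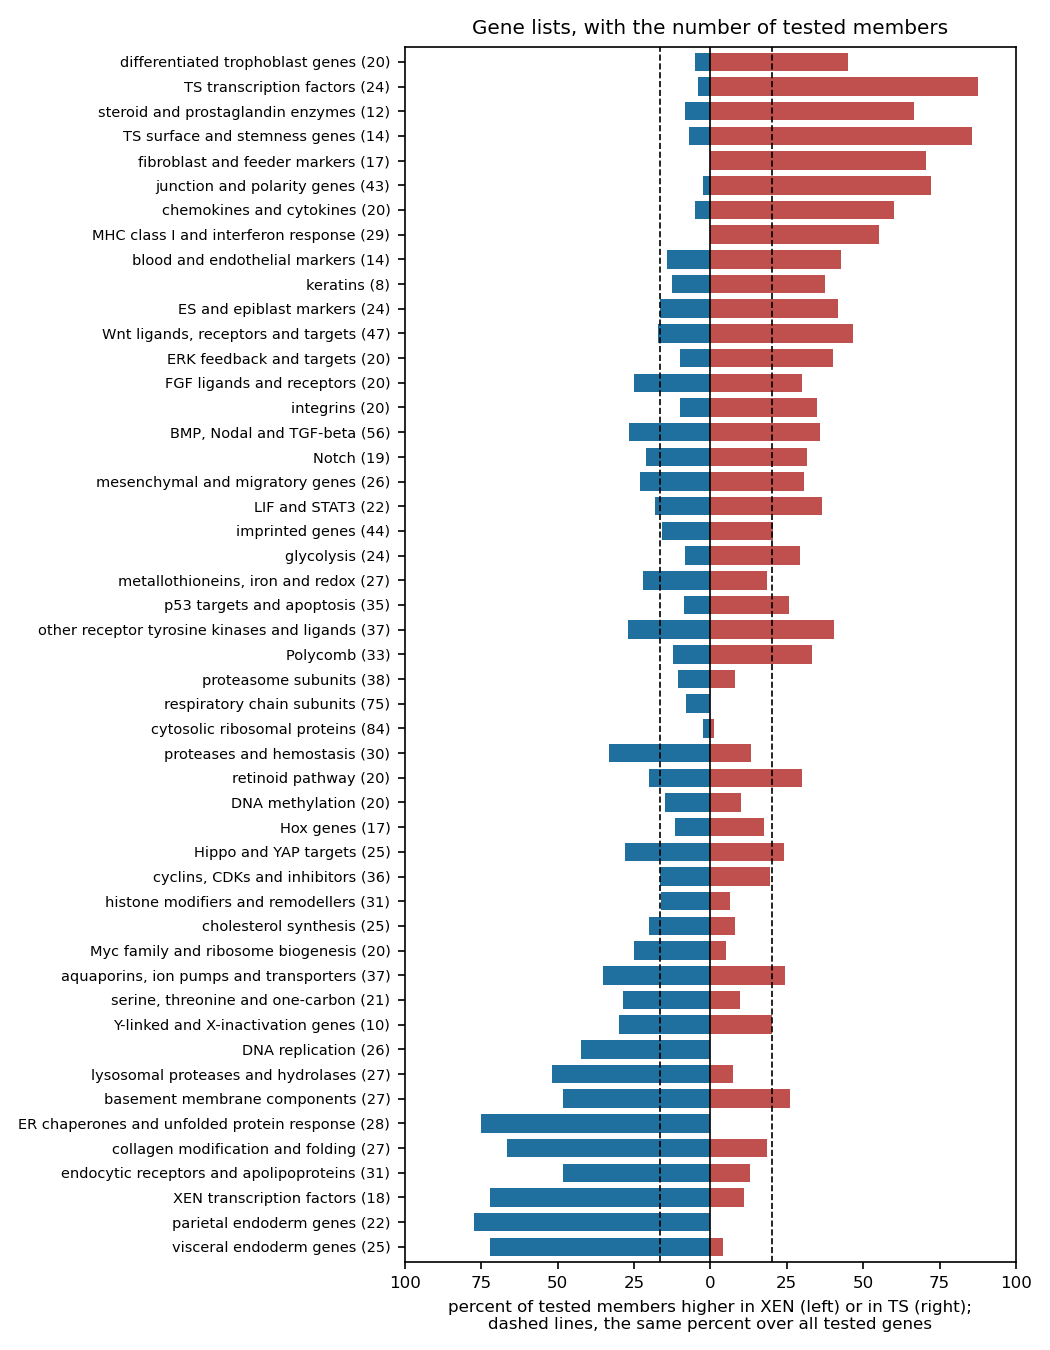
Percent of the tested members of each gene list that were higher in XEN (blue, left) or in TS (red, right) at an adjusted p under 0.05, with the number tested in brackets and the lists ordered by median log2 difference. Dashed lines mark the same percent over all genes tested, 16.4 and 20.3; the ribosomal, proteasome and respiratory lists lie well inside them.

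Of 33 Polycomb genes tested, 11 were higher in TS (6 without XEN M1) and 4 in XEN (2 without TS F1, 1 without XEN M1, 7 without TS M3), with a median of 0.11. Phf19, a Polycomb-like protein, stood at 59.6, 61.0 and 55.7 CPM in TS and 0.154 and 0.145 CPM in XEN (381-fold, adjusted p = 2.72e-05), and Cbx2, a reader of trimethylated H3K27, at 151, 154 and 127 CPM in TS and 3.53 and 15.3 CPM in XEN (15.3-fold, adjusted p = 0.00267). Cbx7, another reader, measured 90.3, 58.8 and 133 CPM in TS and 7.74 and 104 CPM in XEN (adjusted p = 0.534), and passed as higher in TS without XEN M2 (log2 3.59, adjusted p = 0.00595). The catalytic subunit Ezh2 stood at 164, 139 and 91.3 CPM in TS and 244 and 119 CPM in XEN (adjusted p = 0.316). Of 20 DNA methylation genes, 2 were higher in TS and 3 in XEN (1 without TS F2 or XEN M1): Dnmt3l, the cofactor of de novo methylation, was at 64.1, 22.8 and 123.4 CPM in TS and 0.614 and 1.23 CPM in XEN (76.4-fold, adjusted p = 0.00173), and Tet3 at 33.7, 33.1 and 47.3 CPM in TS and 97.5 and 124 CPM in XEN (2.92-fold, adjusted p = 0.00222). Dnmt1 stood at 236, 274 and 251 CPM in TS and 291 and 262 CPM in XEN (adjusted p = 0.562), with overlapping lines. Of 31 histone modifiers and remodellers, 2 were higher in TS (4 without TS M3, 1 without XEN M1) and 5 in XEN, among them Smarca2, the ATPase BRM, at 2.21, 3.07 and 5.89 CPM in TS and 60.4 and 51.2 CPM in XEN (15.1-fold, adjusted p = 0.000582). For these lists the shares that passed were near or below those of all genes, except for Polycomb genes in TS.

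Imprinted genes passed at shares close to those of all genes (20.3% and 16.4%). They gave 9 of 44 tested members (49 listed) higher in TS (5 without XEN M2) and 7 in XEN. Cdkn1c, the cell cycle inhibitor p57, measured 174, 198 and 1204 CPM in TS and 1.23 and 1.08 CPM in XEN (451-fold, adjusted p = 0.00165). Phlda2, a brake on placental growth, stood at 72.5, 45.7 and 422 CPM in TS and 4.92 and 0.326 CPM in XEN (67.7-fold, adjusted p = 0.0167). Ascl2, a factor of the spongiotrophoblast, was at 2.24, 3.20 and 30.1 CPM in TS and 0.0614 and 0 CPM in XEN, a ratio of 300 (95% counting interval 82.7 to 2480, adjusted p = 0.0103). All 3 are genes of the cluster that holds Igf2, and all 3 were highest in TS M3; Phlda2 no longer passed without XEN M2 (adjusted p = 0.0625), and Ascl2 without XEN M2 (adjusted p = 0.064) or XEN M1 (0.0519). H19, the noncoding RNA beside Igf2, stood at 6.38, 15.2 and 3166 CPM in TS and 907 and 553 CPM in XEN (adjusted p = 0.864). Without TS M3 it was higher in XEN (log2 -6.09, adjusted p = 0.0011), and in the other TS lines it was under 20 CPM. With TS M3 alone set against the XEN lines the log2 difference of H19 was 2.12, which rests on 1 TS line. Gnas, the stimulatory G protein, was higher in XEN, at 398, 367 and 488 CPM in TS and 947 and 785 CPM in XEN (2.08-fold, adjusted p = 0.00431).

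Of 36 cyclins, CDKs and inhibitors tested, 7 were higher in TS (4 without XEN M1) and 6 in XEN (3 without TS F2 or XEN M1), shares close to those of all genes. Ccnd2 measured 2.15, 9.96 and 7.65 CPM in TS and 635 and 396 CPM in XEN (78.7-fold, adjusted p = 0.000406), the reverse of Ccnd1. Ccne1, cyclin E1, stood at 229, 169.5 and 192 CPM in TS and 64.4 and 59.2 CPM in XEN (3.19-fold, adjusted p = 0.000764). Of 26 DNA replication genes tested, 11 were higher in XEN (5 without TS F2 and 6 without either XEN line) and 0 in TS, with a median of -0.52. Mcm4, of the replicative helicase, was at 197, 166 and 157 CPM in TS and 363 and 407 CPM in XEN (2.22-fold, adjusted p = 0.00186), and Cdc45 at 51.7, 43.0 and 47.3 CPM in TS and 105 and 102 CPM in XEN (2.18-fold, adjusted p = 0.00162). Higher in TS was 1 gene at an unadjusted p under 0.05, 1 by DESeq2, 0 by limma voom and 1 without TS M3. In a test against a 2-fold change, neither Mcm4 nor Cdc45 passed. Of 35 p53 targets and apoptosis genes, 9 were higher in TS and 3 in XEN (1 without TS F1, TS F2 or XEN M1). Trp53 itself stood at 234, 202 and 236 CPM in TS and 71.8 and 88.5 CPM in XEN (2.80-fold, adjusted p = 0.000934), and Perp, its epithelial target, at 379, 238 and 315 CPM in TS and 5.90 and 4.96 CPM in XEN (57.2-fold, adjusted p = 5.22e-05). Casp8, the initiator caspase of death receptors, measured 0.259, 0.861 and 0.371 CPM in TS and 27.9 and 13.0 CPM in XEN (41.4-fold, adjusted p = 0.00076). Of 20 Myc family and ribosome biogenesis genes, 1 was higher in TS (2 without TS M3) and 5 in XEN (2 without TS F1, 3 without TS F2 or XEN M2), and Myc stood at 98.3, 76.9 and 132 CPM in TS and 133 and 151 CPM in XEN (adjusted p = 0.181).

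Immune and interferon genes passed mostly on the TS side. Of 29 MHC class I and interferon response genes tested, among 31 listed, 16 were higher in TS and 0 in XEN, with a median of 3.37 (0 in XEN also at an unadjusted p under 0.05, by DESeq2 and by limma voom, and 1 without TS M3). Psmb8, a subunit of the immunoproteasome, was at 25.2, 28.4 and 35.2 CPM in TS and 0.0614 and 0.145 CPM in XEN (281-fold, adjusted p = 8.48e-05). Bst2, tetherin, stood at 207, 214 and 316 CPM in TS and 16.5 and 13.5 CPM in XEN (16.4-fold, adjusted p = 0.000547). Ifitm2, an interferon-induced membrane protein, measured 85.2, 71.7 and 65.3 CPM in TS and 6.30 and 7.67 CPM in XEN (10.6-fold, adjusted p = 6.79e-05). The classical class I genes did not follow: H2-K1 stood at 112, 103 and 305 CPM in TS and 189.9 and 21.9 CPM in XEN (adjusted p = 0.55) and H2-D1 at 121, 92.1 and 585 CPM in TS and 213 and 149.7 CPM in XEN (adjusted p = 0.601), with overlapping lines, and B2m, their light chain, at 125, 82.1 and 169 CPM in TS and 212 and 207 CPM in XEN (adjusted p = 0.108). H2-K1 passed as higher in TS without XEN M1 (log2 2.98, adjusted p = 0.0431), and B2m as higher in XEN without TS M3 (log2 -1.02, adjusted p = 0.0333). Of 20 chemokines, cytokines and their receptors tested, among 36 listed, 12 were higher in TS (7 without XEN M1) and 1 in XEN, with a median of 4.11, or 3.14 with genes at 0 in a lineage set at their lower bound. Cxcl14 was at 33.6, 27.8 and 43.7 CPM in TS and 0.0307 and 0.108 CPM in XEN (487-fold, adjusted p = 0.000123), and Il33, the 1 higher in XEN, at 0.0862, 0.0820 and 0.0927 CPM in TS and 21.5 and 13.3 CPM in XEN (190.1-fold, adjusted p = 0.000339).

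Markers of other cells were read beside these lists. Of 17 fibroblast and feeder markers tested, among 24 listed, 12 were higher in TS and 0 in XEN by edgeR (0 in XEN also at an unadjusted p under 0.05, by DESeq2 and by limma voom). Without library 1 of TS F2 the counts were 11 and 0. Col5a1 stood at 25.6, 31.6 and 37.0 CPM in TS and 0.123 and 0.0362 CPM in XEN (360.4-fold, adjusted p = 6.79e-05) and kept a log2 difference of 8.37 without that library. Col1a1 measured 7.82, 40.4 and 24.5 CPM in TS and 0.430 and 1.95 CPM in XEN (20.4-fold, adjusted p = 0.0106), and its adjusted p was 0.0508 without XEN M1. The chemokine list, and the TS members of the collagen modification and mesenchymal lists, had the direction of this list, and its part in them was not tested. Of 14 blood and endothelial markers tested, among 26 listed, 6 were higher in TS and 2 in XEN. Laptm5, a lysosomal protein known from blood cells, stood at 182, 704 and 169 CPM in TS and 0.369 and 0.217 CPM in XEN (1166-fold, adjusted p = 0.000495), and in the ES lines at 612 and 380.0 CPM. Tek, the endothelial receptor TIE2, was at 0.259, 0.205 and 0.0927 CPM in TS and 139 and 149 CPM in XEN (723-fold, adjusted p = 1.20e-05), and Vwf, von Willebrand factor, at 0.0862, 0.287 and 0.185 CPM in TS and 29.2 and 16.0 CPM in XEN (122.7-fold, adjusted p = 0.000165). Tyrobp and Col3a1 had no more than 0.622 and 7.83 CPM in any library of either lineage.

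Of 24 ES and epiblast markers tested, 10 were higher in TS and 4 in XEN, with a median of 1.75. Utf1, a chromatin protein of ES cells, stood at 297, 273 and 291 CPM in TS and 0.522 and 0.289 CPM in XEN (690.2-fold, adjusted p = 1.98e-05), and in the ES lines at 127 and 203 CPM. Dppa4 measured 82.2, 63.1 and 45.0 CPM in TS and 0.0614 and 0.217 CPM in XEN (456-fold, adjusted p = 6.79e-05), and in the ES lines at 87.0 and 108 CPM. On the XEN side, Klf4 stood at 7.12, 10.4 and 12.3 CPM in TS and 192 and 198 CPM in XEN (19.7-fold, adjusted p = 5.71e-05), and in the ES lines at 653 and 684 CPM. Fbxo15 was at 3.48, 4.59 and 3.43 CPM in TS and 46.0 and 43.0 CPM in XEN (11.6-fold, adjusted p = 4.87e-05), and in the ES lines at 167 and 184 CPM. Each extraembryonic lineage thus held a different part of the ES list. Of the 1096 genes over 32-fold higher in TS, 605 (55.2%) had an ES mean of at least 1 CPM, as did 96 (38.9%) of the 247 over 32-fold higher in XEN.

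Some lists differed little. Of 84 cytosolic ribosomal proteins, 1 was higher in TS (0 without TS F1 or TS F2, 2 without TS M3 or XEN M1) and 2 in XEN (1 without TS F2, 0 without XEN M1), with a median of 0.04. Of 38 proteasome subunits tested, among 39 listed, 3 and 4 passed (2 in XEN without TS F1, TS F2 or XEN M2), with a median of 0.05, and those higher in TS included the interferon-induced Psmb8 and Psmb9. Of 75 respiratory chain subunits tested, among 79 listed, 0 were higher in TS by edgeR (2 at an unadjusted p under 0.05, 2 by DESeq2, 0 by limma voom and 4 without XEN M2) and 6 in XEN (2 without TS F1, 0 without TS F2 or XEN M2), with a median of 0.05. Of 17 Hox genes tested, among 39 listed, 3 were higher in TS (5 without TS F1) and 2 in XEN (1 without TS F1 or TS F2, 0 without XEN M1 or XEN M2), each at under 4 CPM in every line.

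Lines of a lineage also differed from one another, which the following genes show as values with no test. TS M3 stood apart in placental hormones: Prl2c3 and Prl2c4 stood at 0.747, 3.69 and 1177 CPM in TS F1, TS F2 and TS M3, and their counts were identical in all libraries, so reads of these near-identical copies cannot be told apart. Ctsj, a placental cathepsin, measured 2.38, 4.96 and 386 CPM, and Psg29, a pregnancy-specific glycoprotein, at 0.0862, 0.533 and 45.9 CPM. H19 followed the same line. TS F1 stood apart in Mest, an imprinted hydrolase, at 1.90, 194 and 110.3 CPM and in Cd55, a complement inhibitor, at 322, 29.9 and 34.0 CPM. Mest was higher in TS than in XEN only when TS F1 was left out (log2 3.39, adjusted p = 0.00187). TS F2 stood apart in a pair of imprinted genes, Grb10, a growth inhibitor, at 1594, 63.2 and 776 CPM, and Igf2r, the receptor that clears IGF2, at 259, 45.5 and 272 CPM. Grb10 was higher in TS than in XEN (28.8-fold, adjusted p = 0.0226), with an adjusted p of 0.133 without XEN M2 and 0.0848 without XEN M1.

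The XEN lines differed in Lbp, lipopolysaccharide-binding protein, at 0.307 and 132 CPM in XEN M1 and XEN M2, in Hspb1, a small heat shock protein, at 151 and 0.724 CPM, in Kcnk1, a potassium channel, at 83.2 and 0.326 CPM, in Igfbp4, an IGF-binding protein, at 90.8 and 0.796 CPM, and in Krt19, a keratin, at 2.03 and 152 CPM. Lbp and Krt19 were high in XEN M2 and the others in XEN M1. With 2 lines, it cannot be told which value is usual for XEN cells.

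**Figure D5:**
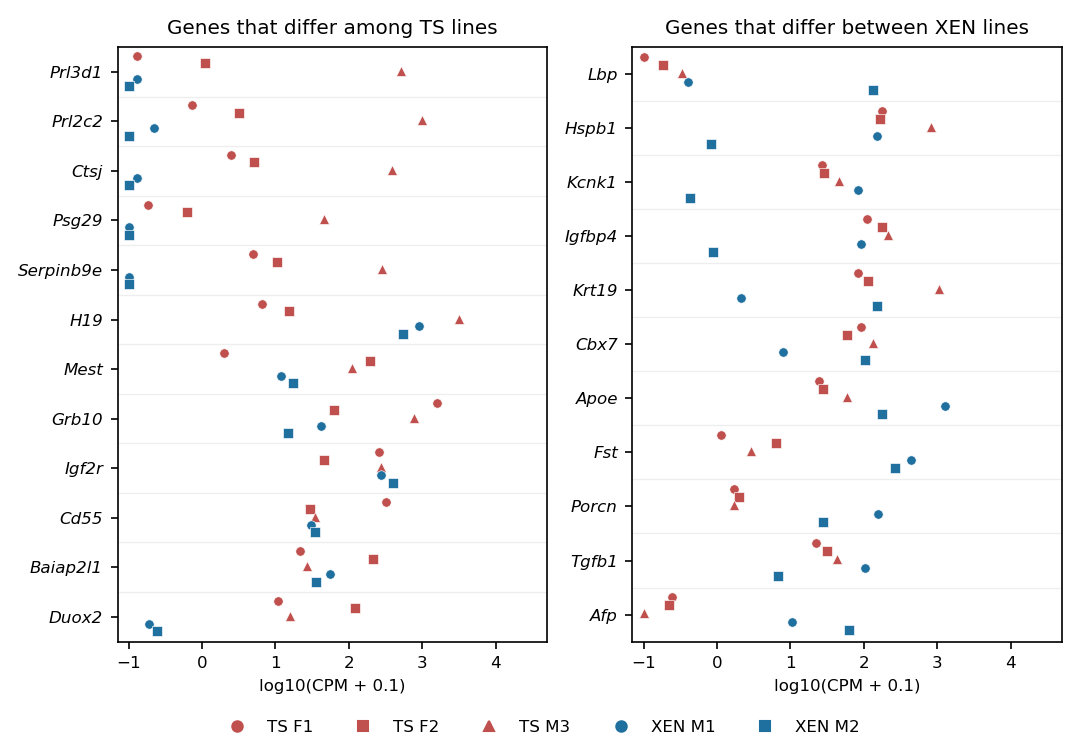
Level in every line of genes that differed among TS lines (left) and between XEN lines (right), as log10(CPM + 0.1), TS in red and XEN in blue. Prl3d1, Prl2c2 and Ctsj are high in TS M3 alone, Mest is low in TS F1, and Grb10 and Igf2r are low among TS lines in TS F2.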

How the data were processed

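Messenger RNA of mouse cell lines was sequenced. The authors deposited raw read counts per gene symbol, and the submitters' processing notes name TopHat 1.3.1, edgeR and the mm9 build; no source used here gives the counting program, the annotation or whether strand was used, so overlapping and antisense genes are uncertain. Counts of the 2 technical replicates of a line were summed. The 7 lines were fitted in R 4.3.3 with edgeR 4.0.16 (filterByExpr, TMM scaling, robust quasi-likelihood test) as 3 lineages, and TS was tested against XEN with Benjamini-Hochberg adjustment at 0.05. Levels are TMM-scaled CPM. A fold against a lineage at 0 was computed against 3 counts over its lines, and ratios resting on 1 to 3 counts have a 95% counting interval. Intervals cover counting error only, and the labels do not say whether lines were derived separately. limma 3.58.1, DESeq2 1.42.0 and the alternatives of the closing section were run on the same counts. Only the main edgeR fit was tested on simulated data, in which 200 of 14687 genes were changed. It recovered 14%, 68%, 84% and 96% of changes of 2-, 4-, 8- and 32-fold, and 13 unchanged genes also passed. Named genes were the 4 markers, the 15 largest differences each way at 32 CPM or more in the higher lineage with no overlap of lines, and up to 5 genes each way of each list by p, with up to 3 abundant members that did not pass; only some of those are described. The members and lists were chosen with earlier results of these data known, and other genes named or plotted were chosen after their values were seen. The ES lines shared the filter, the scaling and the spread, and without them 14226 genes were tested in place of 14687. Embryo libraries and the authors' list of Nanog-regulated genes were not used here.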

Additional observations from a re-analysis of the deposited data

Results flagged for a closer look

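In 25 measures checked per library (50 checks of the TS and the XEN libraries), 6 measures had 1 library far above the others of its lineage, in 3 libraries in all. The rule flags about 1 in 20 groups by chance if values are independent and normally distributed. Most measures were CPM of single genes, for which that rate was not tested. Library 1 of TS F2 had 73.6 CPM of Col1a2, against 17.1 CPM in the next TS library, 7.83 CPM of Col3a1 against 2.26 CPM, 23.7 CPM of Lyz2 against 1.31 CPM and 0.622 CPM of Tyrobp against 0.114 CPM. These 4 measures, fibroblast collagens and genes of myeloid cells, come from the same library. Gata6 was at 539.9 CPM in library 2 of XEN M1, against 296 CPM in the next XEN library. Cdx2 was at 9.18 CPM in library 1 of XEN M2, against 1.16 CPM in the next. The cause was not tested.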

How the results depend on the processing

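Of 396 named genes that passed, 246 passed in the same direction in every alternative that tested them, at most 17. Many named genes were picked for a large difference or a small p in this same fit. Of all 5385 genes that passed, 4367 passed again in the same direction without the ES lines in the fit and 3908 with sex as a term. The 5385 genes that passed, 2976 higher in TS and 2409 in XEN, became 2791, 1896 and 895 in a test against a 2-fold change, and TS M3 alone against XEN gave 1545 higher in XEN. Leaving out 1 line gave 3808 to 5798 genes, 2177 to 3119 higher in TS and 1631 to 2679 in XEN. Under the alternatives run, 0 of the genes that passed did so in the opposite direction. Gadd45a, higher in XEN (log2 -2.36), ranged from -3.24 to 0.20 when 1 line was left out and did not pass without XEN M1 (adjusted p = 0.619), TS F1 (0.102), TS F2 (0.114) or TS M3 (0.0931); it passed in 4 of 17 alternatives. H19 ranged from -6.09, passing as higher in XEN without TS M3, to 1.16 with 1 line left out. With TS M3 alone set against the XEN lines its log2 difference was 2.12, which rests on 1 TS line. Tgfb1 changed direction, from -1.67 without XEN M2 to 2.28 without XEN M1, each with 1 XEN line left. The cause of these changes was not tested. Technical replicate numbers, 1 or 2, were shared between lineages, and the labels give no passage number. With the replicate number as a block on the unsummed libraries and the line as a random effect (limma voom), 4876 genes passed, 2709 higher in TS and 2167 in XEN. Differences between the libraries of a line correlated by only -0.07 to 0.08 over genes between TS and XEN lines. The samples thus share a number, which is not shown to stand for a shared batch. With 2 XEN lines and 12.7 to 23.7 M counts a library, genes under about 1 CPM rest on few reads.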

Other observations

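Gene families taken by symbol, chosen after their values were seen, are given beside the 20.3% of all genes that were higher in TS and the 16.4% higher in XEN. All 7 genes named Rhox4, X-linked homeobox genes of the placenta, were higher in TS; they are near-identical copies, so their reads cannot be assigned to a single one. Of the other 25 Rhox genes, 9 were tested and 2, Rhox6 and Rhox9, were higher in TS. Of 26 genes of the prolactin family, 11 were tested and 0 passed with edgeR, DESeq2 or limma voom, with 5 at an unadjusted p under 0.05 in edgeR. Claudins, the strands of tight junctions, gave 5 of 10 tested members higher in TS and 1 in XEN, and cadherins 6 of 11 in TS and 1 in XEN.

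Enzymes that attach glucuronic acid to lipids and drugs lay in XEN. All 8 genes named Ugt1a were higher there, and they share exons, so a read in those exons fits each of them. Of 7 tested genes of the Serpinb9 group of serine protease inhibitors, 2 were higher in TS (28.6%) and 0 in XEN. Of 5 tested genes of the Serpinb6 group, 4 were higher in XEN (80%) and 0 in TS. Zinc finger genes with Zfp names gave 28 higher in TS (8.86%) and 56 in XEN (17.7%) of 316 tested, and solute carriers 61 (22.5%) and 56 (20.7%) of 271, against 20.3% and 16.4% of all genes. Histone genes of the Hist1 cluster gave 0 either way of 51 tested with edgeR and limma voom, 1 with DESeq2 and 1 at an unadjusted p under 0.05 in edgeR. In all, 49 genes of at least 100 reads had counts identical to those of another gene in all 14 libraries of the lines.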
